A study of Mus musculus with 2 samples.

Results

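The BCL2 family decides whether a cell keeps its mitochondria intact or dies by apoptosis. In this family, 10 genes were examined in adipose tissue macrophages (ATM), the macrophages of fat, out of 20330 gene identifiers in the deposited table. They were taken by gene symbol, from a list drawn up with earlier results of these data known. All 10 had a row, and 9 passed the filter on low values (an FPKM of 1 or more in either library), against 10297 of all genes. FPKM is a level scaled to transcript length and to the number of fragments in the library. It does not correct for a different make-up of the RNA in each library, and the median ratio of KO to WT over genes that reached an FPKM of 1 in both was 1.02.

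ATM were sorted by flow cytometry on F4/80 and CD11b from visceral fat of C57BL/6 mice after 12 weeks of high-fat diet. The WT library came from hMRP8cre-;Hif-1αfl/fl;ApoE-/- mice and the KO library from hMRP8cre+;Hif-1αfl/fl;ApoE-/- mice, so both groups were labelled ApoE-/- and floxed for Hif-1α. Only the KO mice carried Cre, driven by the human MRP8 promoter, which is active in myeloid cells and not in macrophages alone. The diet was begun at 4 weeks of age. There was 1 library per genotype, with no replicates, and the number of mice behind each was not given in the sources used here. Every difference is therefore between 2 libraries and carries no replicate check and no p-value.

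The 10 members fall into 3 functional classes. BCL2, BCL-XL (encoded by Bcl2l1), A1 (encoded by Bcl2a1b and its copies) and MCL1 are survival proteins that hold the death proteins in check. BAX and BAK, encoded by Bax and Bak1, are the effectors that open the outer mitochondrial membrane and release cytochrome c. BID, BAD, BIM (encoded by Bcl2l11) and PUMA (encoded by Bbc3) are BH3-only proteins, which sense stress and either neutralise the survival proteins or activate the effectors. The messages and proteins of MCL1 and A1 turn over quickly.

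Depth and identity were checked first. Depth, estimated from the FPKM value of a single fragment, was 5857672 fragments in WT and 7466183 in KO. Of 12 macrophage markers, 11 had a row, and all 11 passed the filter. They summed to 13163 FPKM in WT against 13322 in KO, and Lyz2 and C1qb carried most of both sums. Single markers moved in both directions, with 6 higher in KO and 5 lower, and none was past 3-fold. Mertk was at 38.0 FPKM in WT against 88.1 in KO, and Cd163 at 130 against 214. Fcgr1 went the other way, at 49.3 FPKM in WT against 21.9 in KO. Hif1a, the targeted gene, was at 30.4 FPKM in WT against 20.97 in KO, a value for the whole gene that does not check the deletion of the floxed exon. Apoe was at 94.3 FPKM in WT against 117 in KO, on an estimated 451 and 711 fragments, so reads were assigned to this gene in both libraries although both were labelled ApoE-/-. Whether they came from the targeted allele cannot be told from a value for the whole gene. Of 13 neutrophil markers, 12 had a row and 8 passed the filter, and all 8 were above WT in KO. Among them, Ngp and Mpo were listed at 0 in WT and reached 2.61 and 2.29 FPKM in KO. Mmp8, Elane, Camp and Ltf were listed at 0 in both. The neutrophil markers summed to 197 FPKM in WT against 572 in KO. S100a8 and S100a9 carried most of that sum, and without them it was 60.03 FPKM in WT against 88.3 in KO, a split made after the values were seen. Eosinophil markers summed to 6.50 FPKM in WT against 33.1 in KO, with Siglecf, Epx and Prg2 at 0 in both. Alox15 carried most of that sum, at 6.50 FPKM in WT against 25.7 in KO. Ccr3, the remaining one, was listed at 0 in WT and reached 7.45 FPKM in KO. Fibroblast markers, 4 of 4, were also higher in KO, with sums of 38.0 and 76.5 FPKM. Dcn carried most of both sums, and the rest had a mean of 1 to 5 FPKM, where 54.1% of all genes were past 3-fold. B cell, dendritic cell, mast cell, adipocyte, endothelial and mesothelial markers each summed to at most 16.15 FPKM in either library. Each of these sums was higher in KO, though some single markers were lower. NK cell markers were listed at 0 in both. Of 6 T cell markers, 5 had a row and 1 passed the filter, Cd4, which was lower in KO. It was at 5.35 FPKM in WT against 2.07 in KO, and Cd3e, Cd3d, Cd3g and Cd8a were listed at 0 in both. The part of such cells in the values below was not tested, and in bulk RNA a change in the number of cells of a type cannot be told apart from a change in RNA per cell.

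Across all genes, 13.6% were at least 3-fold higher in KO and 13.7% at least 3-fold lower on the log2(FPKM + 1) scale, with a median change of 0.03. Among the 9 members past the filter, 1 was past 3-fold, Bcl2l1, which was higher in KO, and none was past 3-fold lower. The members' share past 3-fold was thus no higher than that of all genes. The median change of the 9 was -0.19, with 3 above 0 and 6 below. The share of genes past 3-fold depended strongly on expression, so each member was read beside all genes whose mean FPKM lay in the same band.

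**Figure D1:**
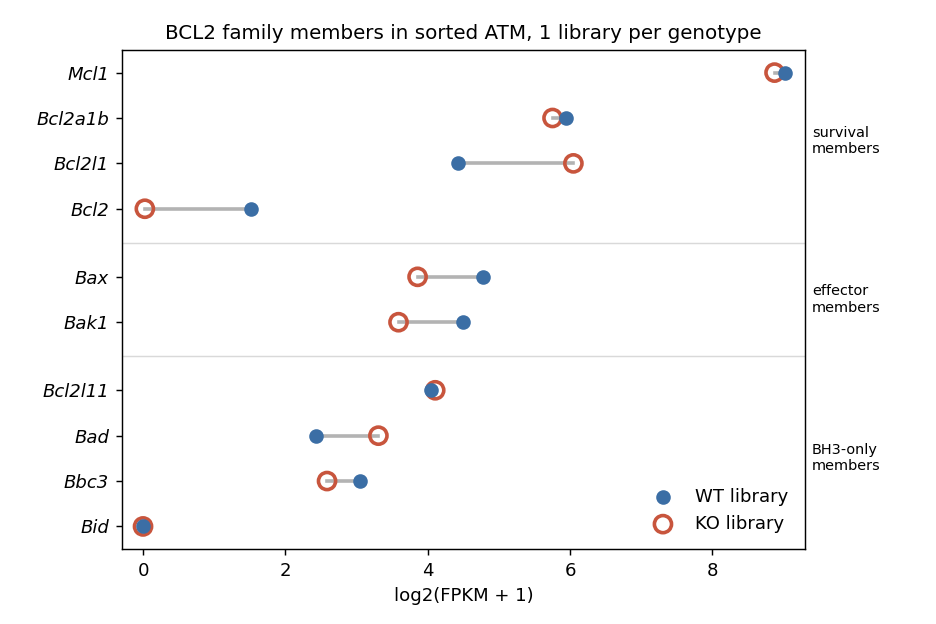
Levels of the 10 BCL2 family members as log2(FPKM + 1) in the WT library (filled blue) and the KO library (open red), 1 library each and therefore without error bars. Mcl1 lies highest in both libraries, and the widest gaps are those of Bcl2l1, higher in KO, and Bcl2, higher in WT.

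Mcl1 (ENSMUSG00000038612, chromosome 3, 95658788 to 95663176 on GRCm38) was by far the most abundant member. It was at 518 FPKM in WT against 468 in KO, on an estimated 6493 and 7466 fragments. This placed it at rank 180 of all identifiers in WT and 191 in KO. The change was -0.15, and the ratio of KO to WT was 0.902, with a 95% counting interval of 0.873 to 0.933. Counting intervals cover only the sampling of fragments, which were estimated from FPKM, and take no account of PCR copies or of differences between mice. Among the 653 genes at 100 to 1000 FPKM, the middle 90% of changes ran from -0.99 to 0.78 and 1.99% were past 3-fold, so the difference in Mcl1 lay well inside the spread of genes of that level. MCL1 message is spliced into forms of opposite activity, which a value for the whole gene does not separate.

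Bcl2l1 (ENSMUSG00000007659, chromosome 2, 152780668 to 152831728) had the highest change among the members. Its level was 20.4 FPKM in WT against 65.1 in KO, on an estimated 195 and 794 fragments. The ratio of KO to WT was 3.19, with a 95% counting interval of 2.73 to 3.76, and the change on the log2(FPKM + 1) scale was 1.63, just beyond the 3-fold line at 1.58. Its rank moved from 3102 in WT to 1114 in KO. Of the 1711 genes at 20 to 50 FPKM, 11.7% were past 3-fold, and the 95th percentile of their changes was 1.60. The member thus lay at the edge of the spread of its band rather than far outside it. BCL-XL is the best-known long form of this gene, and the short pro-death form is counted in the same value.

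Bcl2 itself (ENSMUSG00000057329, chromosome 1, 106538178 to 106714274) was barely expressed. The level was 1.85 FPKM in WT against 0.0178 in KO. By the median length of its coding transcripts these values correspond to 54.4 fragments in WT and 0.668 in KO, which was taken as 1 fragment. The ratio of KO to WT was 0.00964, with a 95% counting interval of 0.000361 to 0.0845. On the log2(FPKM + 1) scale the change was only -1.49, because the pseudocount of 1 compresses low values, and with a pseudocount of 0.1 it was -4.05. A gene with a mean FPKM under 1 cannot pass 3-fold on the main scale, and 0% of the 520 genes in that band did. Of these 520 genes, 223 were listed at 0 in WT and 169 in KO, and a value listed at 0 in this table does not measure absence.

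Bcl2a1b (ENSMUSG00000089929, chromosome 9, 89199209 to 89207827) encodes A1, a survival protein of haematopoietic cells that is induced by NF-κB. It was the second most abundant member in WT, at 60.4 FPKM, and the third in KO, at 52.9 FPKM. The change was -0.19, and the ratio of 0.877 had a counting interval of 0.746 to 1.03, so no difference in this copy was detectable at this depth. In its band of 50 to 100 FPKM, 4.95% of 667 genes were past 3-fold.

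The value of this copy could not be taken alone, because the mouse genome holds several nearly identical A1 genes on chromosome 9. In the GENCODE M21 transcripts, the 519 coding bases of Bcl2a1b differed from those of Bcl2a1d at 6 positions (98.8% identity) and from those of Bcl2a1a at 11 (97.9% identity). Only 42.4% of the 50-base stretches of the Bcl2a1b transcript were found in none of the other copies, against 31.0% for Bcl2a1a and 20.5% for Bcl2a1d. The first 60 coding bases held 6 of the 12 positions at which the 3 copies were not all the same, and they are shown here, with those positions in capitals, to make plain how little separates the reads of one copy from those of another.
Bcl2a1a: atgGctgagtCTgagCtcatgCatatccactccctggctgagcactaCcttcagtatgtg
Bcl2a1b: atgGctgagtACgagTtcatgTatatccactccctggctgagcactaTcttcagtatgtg
Bcl2a1d: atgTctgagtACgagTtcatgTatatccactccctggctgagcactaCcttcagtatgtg

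The other copies differed more between the libraries than Bcl2a1b did. Bcl2a1a was listed at 0 in WT but reached 28.4 FPKM in KO, on an estimated 174 fragments. Bcl2a1d was at 15.3 FPKM in WT against 38.1 in KO, a change of 1.27. Bcl2a1c, which is annotated with a shorter transcript, was at 1.29 FPKM in WT and listed at 0 in KO. Bcl2a1b thus held 78.5% of the FPKM given to the 4 copies in WT and 44.3% in KO. The sum over the copies, which depends less on how reads were divided among them, was 76.9 FPKM in WT against 119 in KO, a ratio of 1.55 and a change of 0.63. How the authors' counting divided shared reads was not given in the sources used here, so the values of single copies are uncertain, and the sum was formed after they had been seen.

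**Figure D2:**
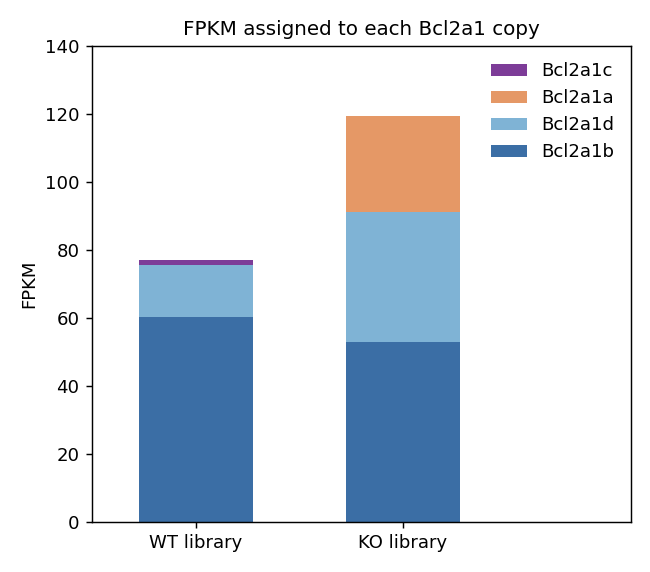
FPKM given to each of the 4 Bcl2a1 copies, stacked, in the single WT and the single KO library. The stack reaches 76.9 FPKM in WT against 119 in KO, and the KO stack holds a Bcl2a1a segment of 28.4 FPKM where WT is listed at 0.

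Both effectors were lower in KO. Bax (ENSMUSG00000003873, chromosome 7, 45461697 to 45466898) was at 26.5 FPKM in WT against 13.5 in KO, a ratio of 0.510 with a counting interval of 0.382 to 0.684. Bak1 (ENSMUSG00000057789, chromosome 17, 27019810 to 27029009) was at 21.6 FPKM in WT against 11.04 in KO, a ratio of 0.511 with an interval of 0.410 to 0.640. The fragments behind them were an estimated 124 and 80.7 for Bax and 208 and 136 for Bak1. Their changes of -0.92 and -0.91 were larger than fragment sampling alone gives and fell short of 3-fold. Among the 1861 genes at 10 to 20 FPKM, 20.6% were past 3-fold and the middle 90% of changes ran from -2.47 to 2.22, so both lay well inside the spread of genes of their level.

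Of the 4 BH3-only members, 3 passed the filter and none of these was past 3-fold, beside 13.6% of all genes higher and 13.7% lower. Bcl2l11 (ENSMUSG00000027381, chromosome 2, 128126038 to 128162547), whose product BIM binds all the survival proteins, was the most abundant, at 15.5 FPKM in WT against 16.2 in KO. Its ratio of 1.04 had a counting interval of 0.873 to 1.24, so no difference was detectable at this depth. Bad (ENSMUSG00000024959, chromosome 19, 6941861 to 6951899) was at 4.37 FPKM in WT against 8.90 in KO, on only 22.2 and 57.5 estimated fragments. The ratio was 2.03, with an interval of 1.22 to 3.49. Its gene body overlaps Gpr137 on the opposite strand, which was at 4.46 FPKM in WT against 7.77 in KO, and the library protocol names no step that marks the strand, so reads from a shared stretch could not be assigned. Bak1 overlaps Ggnbp1 in the same way, which was listed at 0 in WT but reached 1.12 FPKM in KO. On the same strand, Bax overlaps the protein-coding Gm45808 and Bcl2a1b the protein-coding Gm29094, neither of which had a row.

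Bbc3 (ENSMUSG00000002083, chromosome 7, 16308393 to 16318205), a p53 target that encodes PUMA, was at 7.31 FPKM in WT against 5.00 in KO. These values rested on 20.8 and 18.1 estimated fragments, and the ratio of 0.684 had an interval of 0.338 to 1.33. No difference could be detected in it. Bad and Bbc3 belong to the band of 5 to 10 FPKM, in which 32.4% of 1885 genes were past 3-fold. Bid (ENSMUSG00000004446, chromosome 6, 120891930 to 120916853), which links death receptors to the mitochondria after cleavage by caspase 8, was listed at 0 in both libraries. It overlaps Bcl2l13 on the opposite strand. Aifm1, a mitochondrial flavoprotein that most cells express, was also listed at 0 in both.

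**Figure D3:**
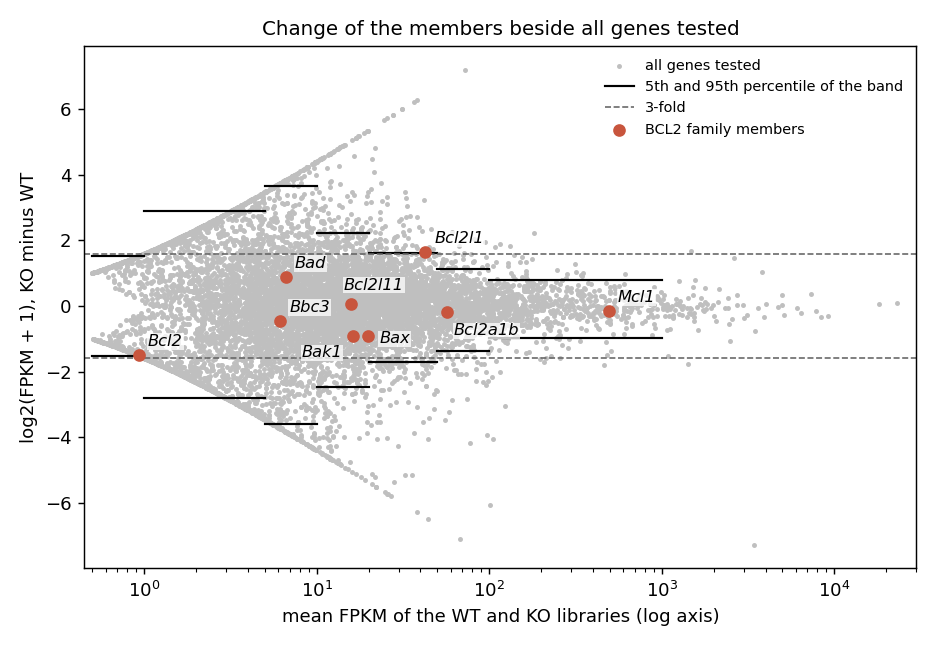
Change as log2(FPKM + 1), KO minus WT, against the mean FPKM of the libraries (log axis) for the 10297 genes tested (grey) and the 9 members past the filter (red), with the 5th and 95th percentiles of each band of mean FPKM as black bars and 3-fold as dashed lines. Bcl2l1, at 1.63, lies just above the upper bar of its band at 1.60, and the other 8 members, Bcl2 at -1.49 among them, lie within the bars.

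In WT the order of the levels ran Mcl1, Bcl2a1b, Bax, Bak1, Bcl2l1, Bcl2l11, Bbc3, Bad, Bcl2 and Bid. In KO Bcl2l1 stood second, above Bcl2a1b, Bcl2l11 stood above Bax and Bak1, and Bad above Bbc3. With 1 library each, the order of neighbours such as Bax and Bak1 or Bbc3 and Bad carries no replicate check. Counting intervals were formed between libraries and not between genes, so this order was not tested.

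Levels were then summed by class, a choice made after the values were seen. The 4 survival members summed to 601 FPKM in WT against 586 in KO, a change of -0.04. Mcl1 made up 86.3% of this sum in WT and 79.8% in KO, and Bcl2l1 made up 3.39% and 11.1%. Without Mcl1, the survival members summed to 82.6 FPKM in WT against 118 in KO. With all 4 A1 copies in place of Bcl2a1b alone, the survival sum was 618 FPKM in WT against 652 in KO, a change of 0.08 and so of the other sign, and without Mcl1 it was 99.1 against 185 FPKM, a ratio of 1.86. The 2 effectors summed to 48.1 FPKM in WT against 24.5 in KO. The survival members were thus 12.5 times the effectors in WT and 23.9 times in KO. Without Mcl1 this ratio was 1.72 in WT and 4.81 in KO, and of the 3 survival members left Bcl2l1 alone was higher in KO, while Bcl2a1b and Bcl2 were lower. Bcl2l1 relative to Bax was 0.770 in WT and 4.82 in KO. Like the sums, this pair was chosen after the values were seen. It joins the member with the highest change to one that was lower in KO, so the choice itself fixed a wide gap. The BH3-only members summed to 27.2 FPKM in WT against 30.1 in KO. Such ratios are of messages and not of proteins, which in this family are also regulated after transcription.

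Since HIF-1 binds the core letters ACGTG or GCGTG, the 250 bases before each RefSeq start of the members (GRCm38.p6) were searched for both, on either strand. The 10 members had 16 annotated starts, of which 9 (56.3%), in 6 genes, held at least 1 match, against 38.6% of all 32851 windows of that length. Windows of the same gene are not independent and can overlap, as at Bbc3, and the difference between these shares was not tested. ACGTG alone was found in 2 of the 16, at Bax and at 1 of the 3 starts of Bbc3, against 16.6% of all windows. The 2 effectors and Bcl2l1, the member past 3-fold, are shown to give examples of windows with and without a match, 5′ to 3′ on the strand of the gene, with the matched letters in capitals. The windows are chr7:45466899-45467148 for Bax, chr17:27028628-27028877 for Bak1 and chr2:152831729-152831978 for the outermost of the 3 starts of Bcl2l1, all on the minus strand.
Bax: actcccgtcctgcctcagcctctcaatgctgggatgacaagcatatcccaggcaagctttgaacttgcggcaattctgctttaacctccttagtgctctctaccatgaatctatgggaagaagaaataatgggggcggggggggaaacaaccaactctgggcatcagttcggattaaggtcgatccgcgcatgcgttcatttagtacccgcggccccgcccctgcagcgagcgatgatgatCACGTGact
Bak1: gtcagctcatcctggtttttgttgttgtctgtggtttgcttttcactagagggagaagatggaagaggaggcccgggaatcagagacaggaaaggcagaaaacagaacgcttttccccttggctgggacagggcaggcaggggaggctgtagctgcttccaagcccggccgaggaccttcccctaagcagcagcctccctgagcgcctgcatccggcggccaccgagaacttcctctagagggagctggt
Bcl2l1: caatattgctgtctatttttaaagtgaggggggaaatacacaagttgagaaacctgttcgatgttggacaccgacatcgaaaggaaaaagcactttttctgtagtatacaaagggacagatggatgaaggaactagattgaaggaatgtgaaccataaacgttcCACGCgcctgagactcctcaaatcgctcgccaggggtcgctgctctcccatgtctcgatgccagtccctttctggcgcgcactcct

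In Bax the match was a palindrome read on both strands, from 9 to 4 bases before the start. The window of Bak1 held no match. Bcl2l1 had 1 match on the opposite strand, from 86 to 82 bases before the outermost start, and none at its other 2 starts. Mcl1, Bcl2, Bid and Bak1 held none at any annotated start. A match is only a run of letters, and no binding was measured.

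Genes around the BCL2 family were compared as lists, covering 83 genes, of which 68 passed the filter. Of the 68, 4 were past 3-fold higher in KO and 2 past 3-fold lower, and the median change was 0.18. The shares among all genes were 13.6% and 13.7%. Among the 6 was the A1 copy Bcl2a1a, whose value is uncertain as described, and Fas and Dffb lay under the mean of 5 FPKM set for naming genes and were named after their values were seen. Among all genes with a mean of 1 to 5 FPKM, 54.1% were past 3-fold.

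Of 12 genes of the apoptosome and caspases, 10 passed the filter. Of these 10, 1 was past 3-fold higher and 2 past 3-fold lower, beside 13.6% and 13.7% of all genes, and the median change was 0.06. Apaf1, the scaffold that assembles the apoptosome around cytochrome c, was at 5.85 FPKM in WT against 24.3 in KO, a change of 1.88 on 176 and 933 estimated fragments, which lay within the middle 90% of its band (-2.47 to 2.22). Htra2, a mitochondrial protease that antagonises the inhibitor of apoptosis proteins once released, was at 52.2 FPKM in WT against 13.1 in KO, a change of -1.91, which lay below the 5th percentile of its band (-1.72). Dffb, the nuclease that cuts DNA in dying cells, was at 2.45 FPKM in WT and listed at 0 in KO. Where a pair of values is given without its libraries, WT comes first. Casp8, the initiator that cleaves BID, was at 17.9 and 35.8 FPKM, a change of 0.96. Cycs, which encodes cytochrome c, was at 17.99 FPKM in WT against 10.98 in KO.

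Of the other survival genes, 4 of 5 passed the filter and 1 of these 4, Bcl2a1a, was past 3-fold higher, beside 13.6% of all genes. Bcl2l2, which encodes BCL-W, was at 1.73 FPKM in WT against 4.26 in KO, a change of 0.95. Among the remaining relatives, Pmaip1, which encodes the MCL1 antagonist NOXA, was at 24.0 FPKM in WT against 16.6 in KO. Bmf, another BH3-only gene, was at 1.45 and 5.98 FPKM, a change of 1.51, and Bik and Hrk were listed at 0 in both. Bcl2l12 was at 15.2 and 6.73 FPKM, and Bcl2l13, a mitochondrial receptor for mitophagy, at 2.65 and 0.371 FPKM. Neither was past 3-fold, beside 13.6% of all genes past it higher and 13.7% lower. Of the BH3-like proteins, Bnip3, a HIF-1 target that drives mitophagy, was at 1.51 FPKM in WT against 8.93 in KO, a change of 1.98 on 10.9 and 82.5 estimated fragments. It was the 1 of 3 genes of its list past 3-fold, and it lay inside the spread of its band of 5 to 10 FPKM, where 32.4% were past 3-fold and the 95th percentile was 3.64. Its paralog Bnip3l was at 19.8 and 25.8 FPKM, and the autophagy gene Becn1, whose product binds BCL2, at 16.3 and 6.15 FPKM.

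**Figure D4:**
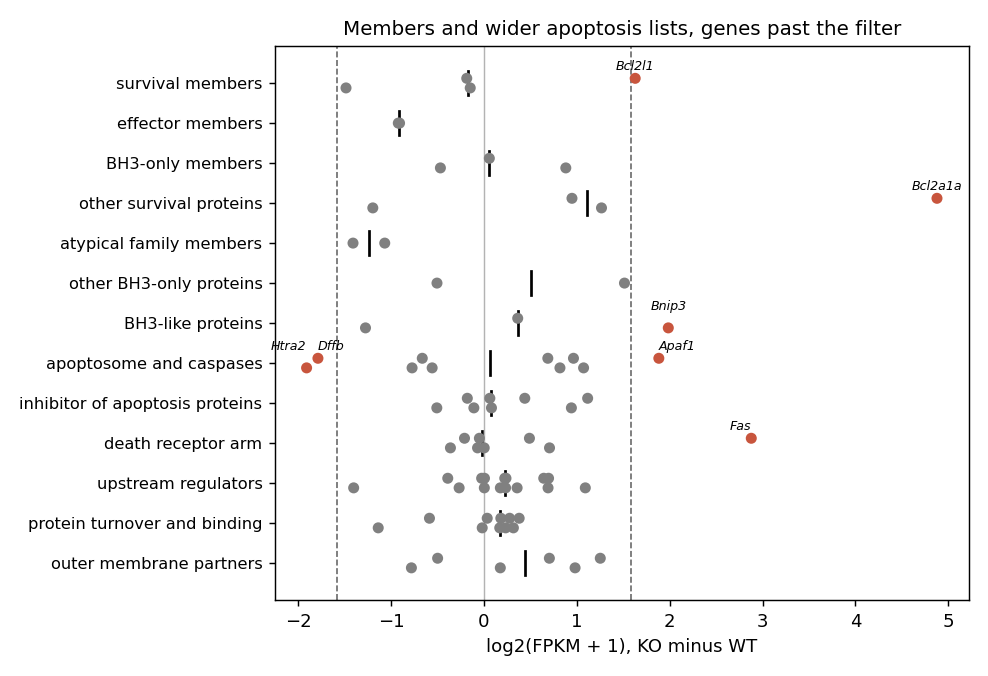
Change as log2(FPKM + 1), KO minus WT, for each gene past the filter, by list, with black ticks at the list medians and dashed lines at 3-fold; genes past 3-fold are red and named. Outside the members 6 genes are past 3-fold, 4 higher and 2 lower of 68, beside 13.6% and 13.7% of all genes, and in 6 of the 10 wider lists no gene passed 3-fold in either direction.

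Among the inhibitor of apoptosis proteins, 8 of 9 passed the filter and none was past 3-fold, beside 13.6% of all genes past it higher and 13.7% lower, with a median change of 0.07. Birc3, which restrains caspase 8 at the TNF receptor, was at 155 and 144 FPKM, and Birc5, a mitotic gene, at 15.6 and 35.0 FPKM. In the death receptor arm, 1 of 8 genes was past 3-fold higher and none lower, beside the same shares. This was Fas, a death receptor, which was listed at 0 in WT but reached 6.35 FPKM in KO, on an estimated 66.6 fragments. The TNF receptors Tnfrsf1a and Tnfrsf1b were at 123 and 102 FPKM in WT and at 106 and 78.96 FPKM in KO.

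Upstream regulators had a median of 0.22 against 0.03 for all genes, with none of 15 past 3-fold, beside 13.6% of all genes higher and 13.7% lower. Atf4, a stress factor that induces BH3-only genes, was at 364 and 590 FPKM, and Stat3, which induces Bcl2l1 and Mcl1, at 125 and 160 FPKM. Proteins that bind or turn over family members had a median of 0.18, with none of 10 past 3-fold, beside the same shares of all genes. The 14-3-3 genes Ywhaz and Ywhab, whose products hold phosphorylated BAD in the cytosol, were at 181 and 71.3 FPKM in WT and at 205 and 93.05 FPKM in KO. In the outer membrane, Vdac2, whose product recruits BAK, was at 63.5 and 44.6 FPKM, and Vdac1 at 15.2 and 37.6 FPKM, a change of 1.25. None of the 6 genes of that list was past 3-fold, beside 13.6% of all genes higher and 13.7% lower.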

How the data were processed

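RNA from sorted ATM was sequenced as 1 library per genotype. The authors deposited 1 table of FPKM values per Ensembl gene. The submitters' processing notes list CASAVA 1.8.2, TopHat2 2.0.9, Cufflinks 2.2.1 and mm9. The annotation, filters and treatment of shared reads were not given in the sources used here. FPKM are not counts, so no count model was used.

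Of 20749 rows, 401 full repeats were dropped and 18 further rows for an identifier were summed. Symbols were found for 98.5% of 20330 identifiers. Coordinates, lengths and transcripts are from GENCODE M21 (GRCm38), and promoter windows from RefSeq. The column named mut was taken as KO, the single title that is not WT.

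Change was log2(FPKM + 1), KO minus WT, for genes whose FPKM was 1 or more in either library, and 3-fold was the threshold. Fragments were estimated as FPKM × kb over the smallest recurring step (0.171 in WT, 0.134 in KO, at 18 and 20 genes with a single transcript), using the median length of coding transcripts. Intervals are exact binomial (Clopper-Pearson) at 95%. Procedures were tested on simulated data. Python 3.11.15, pandas 2.3.3, scipy 1.17.1 and biopython 1.88 were used.

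The members and lists were chosen with earlier results of these data known. All members were reported. In the wider lists the 2 highest genes and those past 3-fold with a mean FPKM of at least 5 were named, beside others named for their role. Some genes first put in the wider lists are not reported here and are in none of the counts. Alternatives were pseudocounts of 0.1 and 0.01, other filters, a 2-fold threshold, 2 rescalings and the highest row per identifier.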

Additional observations from a re-analysis of the deposited data

How the results depend on the processing

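The main limit is the design of 1 library per genotype, for which no replicate error exists and no replicate could be left out. No paired analysis was possible because only 1 library stood for a genotype. Members past 3-fold numbered 1 and became 2 with a pseudocount of 0.1, 2 with a pseudocount of 0.01 and 2 with a 2-fold threshold, Bcl2 joining Bcl2l1 each time. Over all 10297 genes, 1903 were higher and 1849 lower with a pseudocount of 0.1, and 1931 and 1877 with 0.01. Bcl2 was at -4.05 and -6.06 with these pseudocounts. The change of Bcl2l1 lay between 1.60 and 1.67 over the alternatives run. The median of the members lay between -0.21 and -0.17. Of all genes, 429 were past 3-fold higher and 447 past 3-fold lower if both libraries had to reach an FPKM of 1, and 2380 were higher and 2314 lower at 2-fold, against 1402 and 1413. Bcl2l13 (-2.54 and -2.80) and Bmf (1.98 and 2.04) also passed 3-fold with the smaller pseudocounts. No change turned direction among the members and the genes named by the rule, which were recomputed, unlike Fas, Dffb, Cycs, Bcl2l2, Bcl2a1c and other genes named outside it. The sum of the Bcl2a1 copies, an alternative added after seeing the data, lay between 0.60 and 0.64. Bad and Bbc3 rested on about 18.1 to 57.5 estimated fragments, which limits both.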
